A study of Mus musculus with 12 samples.

Results

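The genes described here are 9 members of the eicosanoid pathway: Alox5, Alox5ap, Ltc4s and Lta4h of the leukotriene branch, Ptgs2, Ptges3, Hpgds and Tbxas1 of the prostanoid branch, and the receptor gene Ptger4. They were chosen by symbol, and all 9 matched a single Ensembl identifier among the 56748 genes of the count tables. The values come from bulk RNA-seq of donor-derived murine bone marrow (BM) cells sorted as CD45.2+Lin-Sca+Kit+ (LSK), the compartment that holds the stem cells. The cells came from irradiated CD45.1 B6.SJL recipients, 8 to 12 weeks old, that had received BM of the SCLtTA/BCR-ABL double transgenic (DTG) strain. In this strain tetracycline (TET) in the drinking water keeps the BCR-ABL transgene silent, and an SCL regulatory element directs it to stem and progenitor cells. The 6 CML 2wk libraries were made after 2 weeks without TET, and the 6 CTRL libraries from recipients kept on TET. Both groups carry the transgenes, the irradiation and the initial weeks on TET, and per the methods the donor cells were a frozen pool from several DTG mice. The methods describe the groups as separate cohorts, each with as many replicates as there are libraries here. The labels do not say that each library is 1 recipient, and p-values measure the spread between these libraries.

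Eicosanoids are signalling lipids made from arachidonic acid, which phospholipases release from membranes. 5-lipoxygenase, helped by its activating protein FLAP, converts arachidonic acid to the unstable leukotriene A4, from which separate enzymes make leukotriene B4, a chemoattractant of neutrophils, or the cysteinyl leukotrienes of mast cells, basophils and eosinophils. Cyclooxygenases open the other branch, and terminal synthases then give prostaglandins and thromboxane. In the marrow, prostaglandin E2 acts on stem cells through its receptors, and Alox5 has been studied as a gene that leukaemic stem cells of BCR-ABL mouse models depend on.

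Library totals were 22804754 to 41832868 counts in CTRL and 16150817 to 25070105 in CML 2wk. Values are given as CPM, counts scaled to a common library total, with TMM factors. Kit was counted at 681.0 to 800.0 CPM in CTRL and 323.1 to 521.7 CPM in CML 2wk, and Ly6a, which encodes Sca-1, at 27.2 to 38.3 and 31.4 to 74.1 CPM. The induction of the human transgene was not analysed here. The sample labels call all CTRL libraries male and all CML 2wk libraries female, but the counts go against the label of CTRL. Per the methods, donors and recipients were of both sexes, and the sorted cells were donor-derived. Whether a library also held recipient cells was not tested. Xist, which is expressed from the inactive X chromosome of female cells, had 3794 to 4425 CPM in CTRL and 2183 to 3502 CPM in CML 2wk, and the Y-linked gene Ddx3y had at most 24 counts in CTRL and 202 in CML 2wk replicate 2. Both groups thus held female cells, and the labelled sex was used in no comparison. That library stood apart in other genes too, so results that rest on it are given with and without it. The share of mitochondrial counts was 0.816 to 1.288% in CTRL and 2.258 to 2.973% in CML 2wk, and 26783 to 28602 and 22965 to 25726 genes were detected, both without overlap; the part of these differences in the results was not tested. Markers of other cells also moved between the groups. The summed level of 11 mast cell and basophil markers was 108.0 to 222.2 CPM in CTRL and 485.1 to 2794 CPM in CML 2wk, and that of 8 megakaryocyte and platelet markers fell from a range of 335.7 to 420.7 CPM to one of 104.7 to 269.2 CPM. In such bulk samples, fewer cells of a type and less RNA per cell cannot be told apart.

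Of the 9 members, 5 were higher in CML 2wk (Alox5, Alox5ap, Ptgs2, Ptges3 and Hpgds), 2 were lower (Tbxas1 and Ptger4), and Ltc4s and Lta4h did not pass the test (edgeR's quasi-likelihood test, Benjamini-Hochberg adjusted p under 0.05 over 18438 genes). In the whole table, 59.5% of the genes tested were called, 30.6% higher and 29.0% lower, so calls for 7 of 9 members have to be read against a comparison in which most genes moved. The groups did not overlap for 2 members, Ptges3 and Tbxas1, the first higher and the second lower, while 37.6% of all genes tested showed no overlap (17.0% higher and 20.6% lower). The median log2 fold change was 0.38 over the members and 0.07 over all genes tested. Calls differed in how far they rested on single libraries. Alox5, Alox5ap, Ptges3 and Tbxas1 passed under every one of the 22 alternatives tried, while Ptgs2 lost its call in 10 of 21 and Hpgds in 10 of 22.

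**Figure D1:**
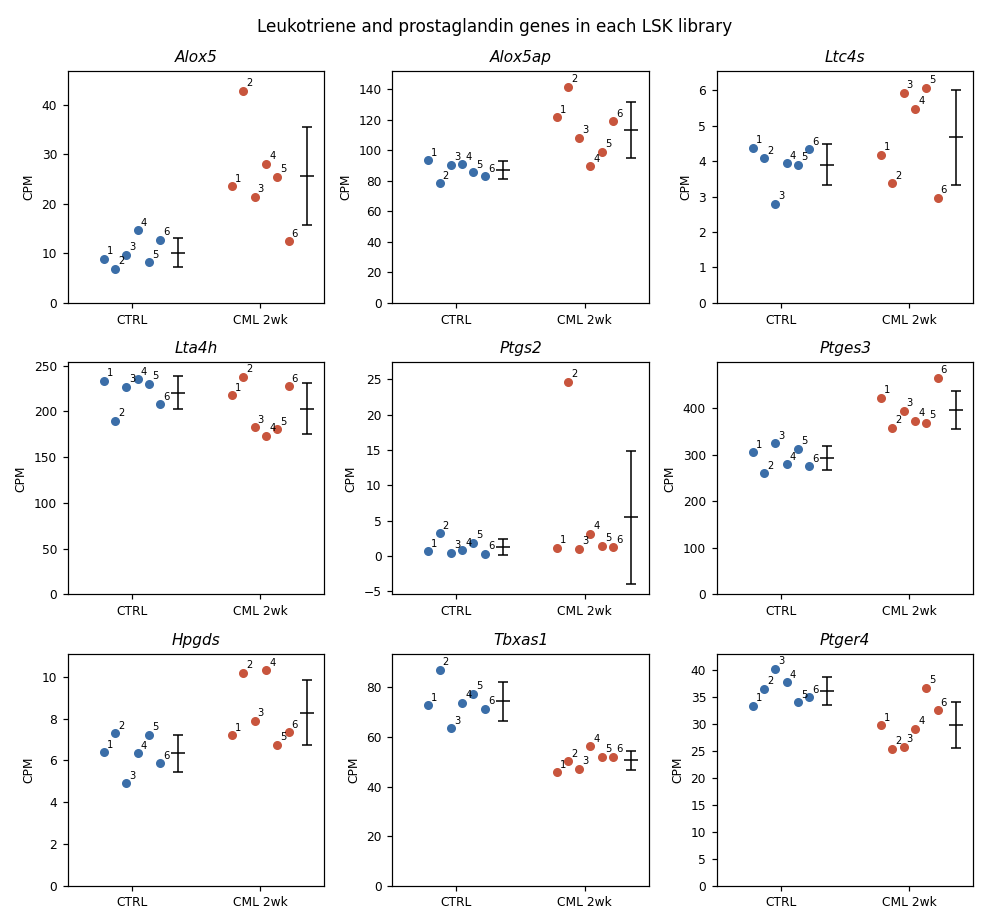
CPM of the 9 members in each library, with CTRL in blue and CML 2wk in red, the replicate number beside each point, and the mean with its SD (n = 6) as a bar. The groups are apart for Ptges3 and Tbxas1, 5 of 6 CML 2wk libraries lie above every CTRL library for Alox5 and Alox5ap, and a single library sets the mean of Ptgs2.

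The upstream 250 bases of 3 members are shown because these members had the clearest differences: Alox5, the gene with the largest rise that kept its call in every setting, and Ptges3 and Tbxas1, whose groups did not overlap. They are RefSeq promoter windows of GRCm38.p6, an earlier build than the GRCm39 named in the submitters' processing notes, at chr6:116461179-116461428 (minus strand) for Alox5, chr10:128058732-128058981 (plus strand) for Ptges3 and chr6:38918736-38918985 (plus strand) for Tbxas1. Each runs 5′ to 3′ and ends at the base before the annotated start, and capitals mark matches on either strand to the GC box GGGCGG, the GATA letters AGATAA or TGATAA, the PU.1 core GAGGAA, the E-box CACGTG or the TATA letters TATAAA.
Alox5: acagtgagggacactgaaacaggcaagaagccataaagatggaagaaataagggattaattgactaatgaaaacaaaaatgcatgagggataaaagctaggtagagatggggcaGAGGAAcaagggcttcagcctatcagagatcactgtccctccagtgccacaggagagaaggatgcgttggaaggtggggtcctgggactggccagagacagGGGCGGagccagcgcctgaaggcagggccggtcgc
Ptges3: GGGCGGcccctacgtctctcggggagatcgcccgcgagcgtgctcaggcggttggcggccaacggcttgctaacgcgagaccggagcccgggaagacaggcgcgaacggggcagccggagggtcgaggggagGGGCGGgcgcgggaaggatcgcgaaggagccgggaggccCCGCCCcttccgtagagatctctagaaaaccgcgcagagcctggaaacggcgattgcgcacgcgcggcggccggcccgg
Tbxas1: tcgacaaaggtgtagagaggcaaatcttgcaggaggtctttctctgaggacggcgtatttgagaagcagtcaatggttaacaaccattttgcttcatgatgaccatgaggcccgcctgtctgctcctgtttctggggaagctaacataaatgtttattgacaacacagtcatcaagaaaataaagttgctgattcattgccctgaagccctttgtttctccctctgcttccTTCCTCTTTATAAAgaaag
The Alox5 window held 1 GC box and 1 PU.1 core, the Ptges3 window 3 GC boxes, and the Tbxas1 window 1 PU.1 core followed by 2 overlapping TATA matches on opposite strands, just before the start. GC content was 52.8% for Alox5, 73.2% for Ptges3 and 43.6% for Tbxas1. Among 32851 windows of the same length, 32.7% held the GC box, 23.3% the PU.1 core, 12.4% the TATA letters, 16.6% the GATA letters and 6.0% the E-box. Windows were given for 8 of the 9 members, and the GATA letters and the E-box were in none of the 8. Such matches describe letters in a window and do not show that a factor binds there.

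Alox5, which encodes 5-lipoxygenase, the enzyme that starts leukotriene synthesis, had 8.86, 6.90, 9.65, 14.6, 8.19 and 12.7 CPM in CTRL replicates 1 to 6 and 23.5, 42.8, 21.4, 28.0, 25.4 and 12.4 CPM in CML 2wk replicates 1 to 6. Of the CML 2wk libraries, 5 lay above the highest CTRL library, and replicate 6 lay inside the CTRL range. The means were 10.1 ± 2.91 CPM in CTRL and 25.6 ± 9.98 CPM in CML 2wk (SD, n = 6 each), and the fitted change was 2.52-fold (log2 fold change 1.33, standard error 0.249, edgeR adjusted p = 0.000336). Without CML 2wk replicate 2, the highest library, the log2 fold change was 1.11 (edgeR adjusted p = 0.000304), and without replicates 2 and 4 of that group it was 1.01 (edgeR adjusted p = 0.000925).

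The level of Alox5 followed that of the mast cell and basophil markers from library to library. Summed over the 11 markers, CML 2wk replicates 1 to 6 had 914.2, 2794, 715.7, 1178, 988.4 and 485.1 CPM, which puts the 6 libraries in the same order as Alox5 (Spearman's rho 1.00 as a description over 6 libraries). In CTRL the rank correlation over 6 libraries was 0.66. Of the 11 markers, 9 were called higher in CML 2wk and none was called lower, where 30.6% of all genes tested were called higher. Prss34 went the other way, from a mean of 10.3 CPM in CTRL to 4.59 CPM in CML 2wk, and did not pass (log2 fold change −1.18, edgeR adjusted p = 0.0618). Fcer1a, the alpha chain of the IgE receptor, rose from 1.59 to 4.13 CPM in CTRL to 16.5 to 181.4 CPM, and Cpa3, the mast cell carboxypeptidase, from 41.9 to 94.4 CPM to 156.1 to 915.7 CPM, while Ms4a2, the beta chain of that receptor, had 12.0 to 34.6 CPM and 12.1 to 59.7 CPM and did not pass. Their part in the difference of Alox5 was not tested. The summed monocyte and macrophage markers were also higher in CML 2wk (429.0 to 1029 CPM, against 211.6 to 264.7 CPM in CTRL). Of these 10 markers, 3 were called higher, F13a1 among them (log2 fold change 1.87), and none lower. Csf1r (−0.23) and Ly86 (−0.45) did not pass. The rank correlation of that sum with Alox5 over the CML 2wk libraries was −0.03. In all, 180 such rank correlations were computed over 6 libraries each and these were picked out after they had been seen. Of the 180, 3 gave the same or the exactly reverse order, and in CTRL the order by Ptgs2 was the reverse of that by the mast cell and basophil markers. Alox5 also followed the summed stromal markers in CML 2wk (rho 0.89). No gene of any of the marker lists was at 0 counts in every library.

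**Figure D2:**
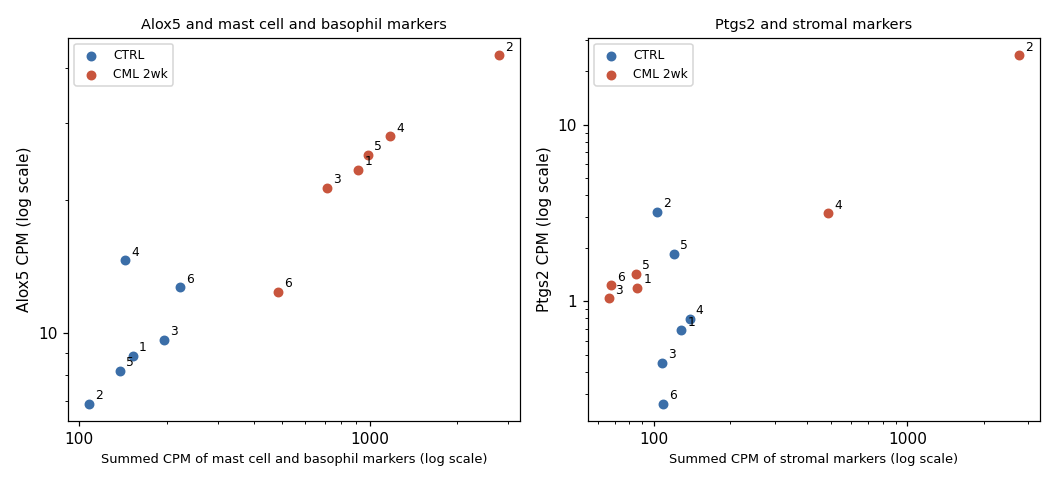
Left, Alox5 CPM against the summed CPM of 11 mast cell and basophil markers; right, Ptgs2 CPM against the summed CPM of 8 stromal markers, both on log scales, with 1 point per library and its replicate number. The CML 2wk libraries rise together in the left plot from replicate 6 (12.4 CPM of Alox5) to replicate 2 (42.8 CPM), and in the right plot replicate 2 (24.7 CPM of Ptgs2) stands apart from the other 11 libraries.

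Genes that varied with Alox5 within the groups were ranked by the Pearson correlation of log2 CPM over the 12 libraries after subtraction of the group means, among 10158 genes with a mean log2 CPM of at least 3. Among the first 5 were Fam189b (0.937), Fcer1a (0.935), Rnf149 (0.919) and Rbsn (0.875). These libraries share their preparation but differ in summed cell markers (485.1 to 2794 CPM for mast cells and basophils within CML 2wk). With so many genes the highest values of a ranking are high by selection. Fcer1a rose in CML 2wk (log2 fold change 4.46, edgeR adjusted p = 3.89e-06) and Rnf149 rose as well (0.46, adjusted p = 0.000442), whereas Rbsn fell (−0.24, adjusted p = 0.00541) and Fam189b had −0.22 (adjusted p = 0.0969). These genes thus did not share 1 direction between the groups.

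Alox5ap encodes FLAP, which presents arachidonic acid to 5-lipoxygenase. It had 93.5, 78.4, 90.6, 91.0, 85.6 and 82.9 CPM in CTRL and 121.7, 141.8, 108.4, 89.6, 99.0 and 119.0 CPM in CML 2wk. Again 5 CML 2wk libraries exceeded all CTRL libraries, and replicate 4 was the exception. The change was 1.30-fold (log2 fold change 0.38, standard error 0.0952, edgeR adjusted p = 0.00317). An antisense gene, Gm19719, overlaps exons of Alox5ap and reached 352 counts in a library, where Alox5ap had 1651 to 3818. Gm19719 was itself higher in CML 2wk (log2 fold change 0.71, adjusted p = 0.000667), in the same direction as Alox5ap.

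The enzymes that act on leukotriene A4 did not pass the test. Lta4h, the hydrolase that makes leukotriene B4, had 233.1, 189.7, 226.7, 234.8, 230.0 and 207.6 CPM in CTRL and 217.3, 238.0, 182.5, 173.2, 180.1 and 227.1 CPM in CML 2wk. The CML 2wk libraries spread over a wider range than CTRL, with replicates 3, 4 and 5 below every CTRL library and replicate 2 above every one. The log2 fold change was −0.12 (standard error 0.089, edgeR adjusted p = 0.268). Ltc4s, the synthase of leukotriene C4, had 4.38, 4.08, 2.80, 3.94, 3.90 and 4.34 CPM in CTRL and 4.19, 3.38, 5.94, 5.48, 6.08 and 2.96 CPM in CML 2wk. Replicates 3, 4 and 5 lay above all CTRL libraries, but the log2 fold change of 0.26 did not pass (standard error 0.199, edgeR adjusted p = 0.282). Ltc4s rested on 60 to 179 counts per library, and an antisense gene that overlaps its exons, Gm26542, had 67 to 187. The use of strand in the counting is not stated, so the reads of these genes may not be fully separated. Lta4h was low in the libraries where Ltc4s was high: over the 6 CML 2wk libraries the log2 levels correlated at −0.93, against −0.22 in CTRL, while Alox5ap and Lta4h correlated at 0.93 and 0.91. These are descriptions over 6 libraries each, picked from 36 pairs of members after they had been seen.

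Ptgs2, the inducible cyclooxygenase, is an early response gene that is also strongly expressed by activated stromal and myeloid cells. It had 0.686, 3.21, 0.449, 0.797, 1.86 and 0.264 CPM in CTRL and 1.19, 24.7, 1.04, 3.15, 1.43 and 1.23 CPM in CML 2wk. Only replicate 2 lay above the CTRL range, and the medians were 0.742 and 1.33 CPM. The fitted log2 fold change was 2.20 (standard error 0.859, edgeR adjusted p = 0.0383), but without replicate 2 the CML 2wk mean was 1.61 ± 0.873 CPM (SD, n = 5) and the log2 fold change 0.42 (edgeR adjusted p = 0.505) and it was 0.04 without replicates 2 and 4 (edgeR adjusted p = 0.95). The same 2 libraries had the highest stromal markers, 2755 and 485.7 CPM in sum against 66.2 to 138.2 CPM in the other 10 libraries. Col1a1, a fibrillar collagen chain, had 221.5 CPM in replicate 2 and 89.4 CPM in replicate 4, and at most 7.11 CPM elsewhere. Col3a1 had 275.4 and 78.5 CPM in those libraries. Cxcl12 had 2.95 and 1.68 CPM there, within the CTRL range, and at most 0.0987 CPM in the other CML 2wk libraries. The part of these markers in the level of Ptgs2 was not tested. Among the CTRL libraries, Ptgs2 was highest in replicate 2, which also had the highest Fos (127.7 CPM, next 48.8), a gene looked up after the Ptgs2 values had been seen. Between the groups Fos went the other way (log2 fold change −1.54, edgeR adjusted p = 0.0249). In CML 2wk replicate 2 it had 24.6 CPM, the highest of that group, next 23.1 CPM.

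Ptges3 encodes p23, a co-chaperone of HSP90 that also has cytosolic prostaglandin E synthase activity. It had 305.7, 260.4, 324.6, 279.7, 312.9 and 274.8 CPM in CTRL and 422.0, 357.5, 394.1, 372.7, 368.6 and 464.8 CPM in CML 2wk. All CML 2wk libraries lay above all CTRL libraries. The rise was 1.35-fold (log2 fold change 0.44, standard error 0.0782, edgeR adjusted p = 0.000231) and ranged from 0.37 to 0.51 on the log2 scale over the alternatives. The annotation lists a pseudogene, Ptges3-ps, with 9.83 to 14.6 CPM in CTRL and 15.4 to 22.3 CPM in CML 2wk, and reads may be shared with it. Within CML 2wk, Ptges3 ran against Alox5 (correlation of log2 levels −0.90 over 6 libraries, and −0.09 in CTRL). This pair too was picked from the 36 pairs of members after they had been seen.

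Hpgds, the haematopoietic prostaglandin D synthase of mast cells and megakaryocytes, had 6.39, 7.30, 4.90, 6.33, 7.22 and 5.85 CPM in CTRL and 7.20, 10.2, 7.90, 10.3, 6.75 and 7.35 CPM in CML 2wk. The groups overlapped, and replicates 2 and 4 of CML 2wk were the highest. The log2 fold change was 0.39 (standard error 0.147, edgeR adjusted p = 0.0347). It was 0.31 without replicate 2 (adjusted p = 0.0715), 0.31 without replicate 4 (adjusted p = 0.0834) and 0.38 with the replicate number as a block (adjusted p = 0.0608). Leaving out CTRL replicate 1, 3, 4 or 6 also ended the call, with values of 0.32 to 0.38 (adjusted p = 0.061 to 0.0852).

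Tbxas1, the thromboxane A synthase of platelets and macrophages, fell. It had 72.7, 87.0, 63.4, 73.8, 77.5 and 71.4 CPM in CTRL and 45.7, 50.1, 47.2, 56.3, 52.0 and 51.9 CPM in CML 2wk, with every CML 2wk library below every CTRL library. The level was 1.47-fold lower (log2 fold change −0.55, standard error 0.0749, edgeR adjusted p = 1.77e-05), the smallest p among the members, and its spread within CML 2wk (7.49% of the mean) was the narrowest of the 9. Megakaryocyte markers fell with it: 6 of the 8 were tested and all 6 were lower, Pf4 from 27.9 to 57.9 CPM in CTRL to 2.72 to 7.65 CPM. Itga2b had 174.6 to 212.7 CPM in CTRL and 67.7 to 227.9 CPM in CML 2wk, and Gp9 6.34 to 8.22 CPM and 1.78 to 9.54 CPM, both called lower. Within CML 2wk the order of the libraries by Tbxas1 was not that by the summed megakaryocyte and platelet markers (rho 0.09, and 0.43 in CTRL). Itga2b made up most of that sum in CML 2wk (227.9 of 269.2 CPM in replicate 2). Pf4 had 2.72, 6.20, 3.06, 7.65, 4.65 and 6.91 CPM in CML 2wk replicates 1 to 6. It was lowest in replicate 1 and highest in replicate 4, as was Tbxas1. In CTRL, Pf4 was highest in replicate 3 (57.9 CPM), where Tbxas1 was lowest. This comparison with Pf4 was added after its values had been seen. The summed monocyte and macrophage markers, described above, were higher in CML 2wk while Tbxas1 was lower. F13a1 alone made up 487.8 of the 1029 CPM of that sum in CML 2wk replicate 1, and Csf1r and Ly86 did not pass. The rank correlations of Tbxas1 with the sum were −0.89 in CML 2wk and −0.60 in CTRL, over 6 libraries each. The part of these markers in the fall of Tbxas1 was not tested.

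Ptger4 encodes EP4, a receptor of prostaglandin E2. It had 33.4, 36.5, 40.2, 37.7, 34.0 and 34.9 CPM in CTRL and 29.7, 25.4, 25.8, 29.1, 36.7 and 32.5 CPM in CML 2wk. Here 5 CML 2wk libraries lay below all CTRL libraries, and replicate 5 lay within their range. The log2 fold change was −0.27 (standard error 0.091, edgeR adjusted p = 0.0182), and it did not pass with upper-quartile factors (−0.20, adjusted p = 0.0788) or without CML 2wk replicates 2 and 4 (−0.22, adjusted p = 0.0613). Exons of Ttc33 on the opposite strand overlap Ptger4, and Ttc33 moved the other way (log2 fold change 0.23, adjusted p = 0.0342).

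Per length of exon (RPKM, on the exon lengths of GENCODE M21), the members spanned a wide range of levels. In CTRL the order was Ptges3 (132.2 ± 11.3 RPKM), Alox5ap (61.3 ± 4.03), Lta4h (36.1 ± 2.94), Tbxas1 (8.17 ± 0.853), Ptger4 (5.43 ± 0.387), Ltc4s (3.85 ± 0.568), Alox5 (2.47 ± 0.71), Hpgds (0.985 ± 0.139) and Ptgs2 (0.264 ± 0.246, SD, n = 6 each). The libraries of Ltc4s and Alox5 overlapped, and the other neighbours in that order did not. In CML 2wk the level of Alox5 was 6.23 ± 2.43 RPKM, beside 5.56 ± 0.416 for Tbxas1, 4.61 ± 1.33 for Ltc4s and 4.49 ± 0.643 for Ptger4, and the ranges of these 4 genes overlapped. The other CML 2wk levels were 178.9 RPKM for Ptges3, 79.7 for Alox5ap, 33.3 for Lta4h, 1.29 for Hpgds and 1.19 for Ptgs2. Alox5ap exceeded its partner Alox5 in both groups, with 63.1 to 99.9 RPKM against 3.02 to 10.4 RPKM in CML 2wk. The order depends on the length used. With the longest transcript, Alox5ap and Lta4h were nearly level in CTRL (69.6 and 68.3 RPKM), Tbxas1 was at 16.3, Ptger4 at 9.57 and Hpgds at 1.63 RPKM. In CML 2wk Alox5, at 7.15 RPKM, then stood below Tbxas1 (11.1) and Ptger4 (7.92) and above Ltc4s (6.53).

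Of 45 other genes of the pathway, 33 passed the filter on low counts, 12 of them higher in CML 2wk and 10 lower, at a median log2 fold change of 0.17. Their groups did not overlap for 14 genes, 8 higher and 6 lower. The list was made by role and with earlier results of these data known, and the shares are near those of all genes tested, so no movement of the pathway as a whole is read from them. Of the 22 calls, 18 were kept in every alternative.

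Among the phospholipases that release arachidonic acid, Pla2g4a, the cytosolic phospholipase A2 that feeds eicosanoid synthesis, had 89.3 to 108.1 CPM in CTRL and 153.5 to 204.7 CPM in CML 2wk (log2 fold change 0.82, edgeR adjusted p = 5.6e-07). Pla2g12a was higher as well (0.36), while Pla2g6 (−0.60), the lysosomal Pla2g15 (−0.58) and the weakly expressed Pla2g4b (−0.91) were lower. Of the other lipoxygenases, Alox12, the platelet type, was tested and fell (−1.43, adjusted p = 0.0042) at under 1 CPM in every library. Alox12b was counted at 0 throughout; with 3 counts as the limit, this bounds its level at 0.0717 CPM in the deepest library and at 0.1857 CPM in the shallowest, counting error alone considered. Alox15 did not pass the filter, with 139 counts in CML 2wk replicate 2, 35 in replicate 4 and at most 12 in the other libraries. Ptgis, the prostacyclin synthase, had 100 and 15 counts in the same libraries and at most 4 elsewhere.

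Of the genes that process or export leukotrienes, 4 were higher and 2 lower. Mgst2 and Mgst3, microsomal glutathione transferases related to Ltc4s, rose with log2 fold changes of 1.20 and 1.04 (edgeR adjusted p = 0.000429 and 8.15e-06). Mgst3 had 3.21 to 4.45 CPM in CTRL and 6.78 to 9.54 CPM in CML 2wk. Ptgr1, which inactivates leukotriene B4 and prostaglandin metabolites, had 12.8 to 18.4 CPM in CTRL and 25.1 to 69.8 CPM in CML 2wk (log2 fold change 1.60, edgeR adjusted p = 4.15e-06). The gamma-glutamyl transferase Ggt5 fell (−0.72, adjusted p = 1.24e-05), as did the leukotriene C4 exporter Abcc1 (−0.26, adjusted p = 0.00368), and Abcc4 had 0.18 (adjusted p = 0.0208), a call that was lost without CTRL replicate 2 or CML 2wk replicate 6. Among the receptors, Cysltr1 rose (0.67, adjusted p = 0.00367) and Cysltr2 fell (−0.61, adjusted p = 0.00011), both without overlap of the groups. Ltb4r1, the high affinity receptor of leukotriene B4, rose (0.82, adjusted p = 0.0115), with 8.79 to 26.7 CPM in CML 2wk against 7.81 to 14.7 CPM, a call that was lost with replicate 6 of both groups left out.

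In the prostanoid branch, Ptgs1, the constitutive cyclooxygenase, had 37.3 to 46.9 CPM in CTRL and 19.8 to 36.1 CPM in CML 2wk (log2 fold change −0.61, edgeR adjusted p = 0.000413). Ptges2 (0.64) and the prostaglandin F synthase gene Akr1b3 (0.52) rose without overlap, and Prxl2b had 0.70 with a call (adjusted p = 0.0384) that 13 of 22 alternatives did not keep. Slco2a1, the prostaglandin transporter, fell (−1.26, adjusted p = 0.0311), more so without CML 2wk replicate 2 (−1.88, adjusted p = 0.000373), and lost the call when any of CTRL replicates 1 and 2 or CML 2wk replicates 1, 5 and 6 was left out. Of the other receptors, Tbxa2r, the thromboxane receptor, fell from a mean of 27.3 ± 1.95 CPM in CTRL to 8.14 ± 2.63 CPM in CML 2wk without overlap of the groups (SD, n = 6 each, edgeR log2 fold change −1.74, adjusted p = 1.61e-06). Ptgir, the prostacyclin receptor, rose from 7.45 to 9.80 CPM to 13.5 to 24.5 CPM (0.93, adjusted p = 5.21e-05). The remaining prostaglandin E2 receptors Ptger1, Ptger2 and Ptger3 had −0.01, −0.03 and 0.18 and did not pass. The synthase and the receptor of thromboxane were thus both lower, as was the cyclooxygenase Ptgs1.

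**Figure D3:**
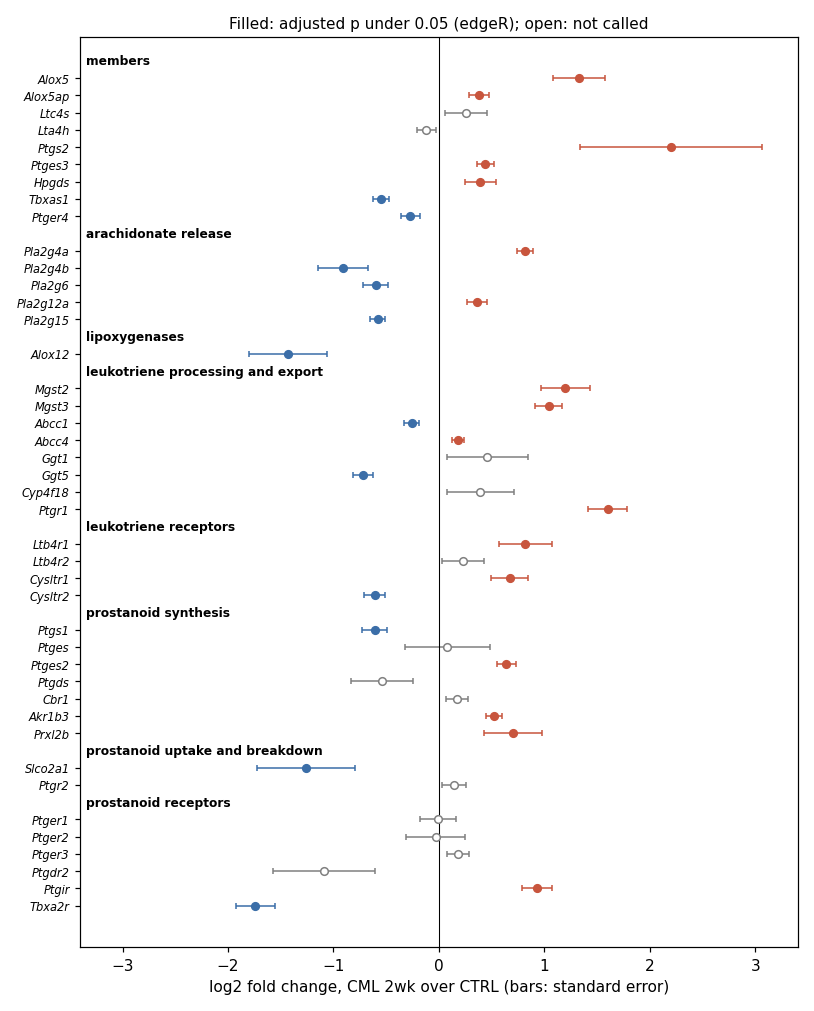
Log2 fold change of CML 2wk over CTRL for the 9 members and the 33 other pathway genes tested, by role, with standard errors; filled points passed an adjusted p of 0.05 and open points did not. Changes go both ways within most roles, from Tbxa2r (−1.74) to Ptgs2 (2.20), and the bar of Ptgs2 is the widest.

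The members' fold changes under every alternative show which of them rest on few libraries. Those of Alox5 ranged from 1.01 to 1.55, those of Tbxas1 from −0.63 to −0.48, and those of Ptgs2 from 0.04 to 2.77.

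**Figure D4:**
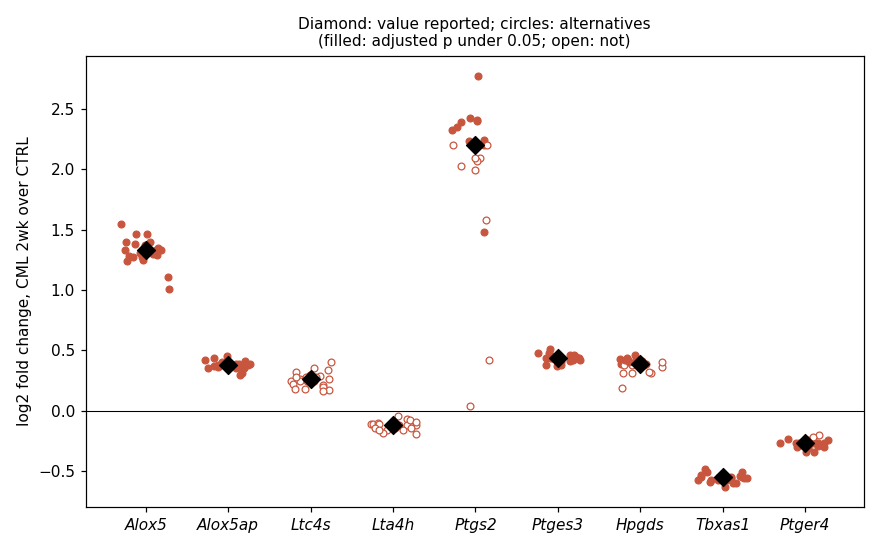
Log2 fold change of each member (vertical axis) as reported (diamond) and under each alternative (circles, filled where the adjusted p was under 0.05). The circles of Alox5, Alox5ap, Ptges3 and Tbxas1 are all filled and keep their sign, and those of Ptgs2 spread from 0.04 to 2.77.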

How the data were processed

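Donor LSK cells were profiled by bulk RNA-seq (Kapa RNA HyperPrep) in 12 libraries, grouped by the sample titles. The authors deposited raw counts per Ensembl gene without normalization. The submitters' processing notes name FastQC 0.11.9, fastp 0.23.2, STAR 2.7.10a, featureCounts 2.0.1 and the build GRCm39, while the methods describe other tools with a human genome; the annotation release and strand setting are not given in the sources used here. Symbols were matched by Ensembl identifier for 52073 of 56748 genes, and 0 rows named no gene. Totals were 16150817 to 41832868 counts per library; limits from 3 counts cover counting error only. edgeR 4.0.16 (R 4.3.3) was run with filterByExpr, TMM factors, the quasi-likelihood test and Benjamini-Hochberg adjustment over 18438 genes, at a threshold of 0.05. The standard error is the log2 fold change over the square root of F. Log2 CPM used a prior count of 2. DESeq2 1.42.0 and limma 3.58.1 (voom) were alternatives, as were other factors, filters, the replicate block and libraries left out. Tables and plots used Python 3.11.15 with pandas 2.3.3 and matplotlib 3.10.9. The fit was tested on simulated data, drawn with 1 dispersion per gene for both groups. It recovered 60 of 98 genes planted at a log2 change of 1 and 91 of 98 at 2. It made 10 false calls among 18014 unchanged genes. The members, gene lists, motifs and alternatives were chosen with earlier results of these data known. Named genes were the members, the pathway genes that passed, the 5 genes most like Alox5 (1 of which is not reported here), the first 3 genes of a marker list where it is described, and genes for checks of labels; Fos, the overlapping genes and the pathway genes named without a call were added after their values had been seen. Lists for granulocytes, eosinophils, erythroid, B, T and NK cells and for the LSK gate with other stem and progenitor genes were also summed.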

Additional observations from a re-analysis of the deposited data

Results flagged for a closer look

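Within each group of 6 libraries, a library was singled out when its gap to the nearest other exceeded Dixon's 95% critical value for that number. Of 38 groups of values examined (the 9 members and 10 marker lists in both groups), 6 met this, against about 1.9 by chance. CML 2wk replicate 2 accounted for 4 of them.

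CML 2wk replicate 2 was highest for Ptgs2 (24.7 CPM, next 3.15), for the summed stromal markers (2755 CPM, next 485.7), for the mast cell and basophil markers (2794 CPM, next 1178) and for the megakaryocyte and platelet markers (269.2 CPM, next 154.9). CTRL replicate 3 was lowest for Ltc4s (2.80 CPM, next 3.90), on 75 counts. CTRL replicate 4 was highest for the summed granulocyte markers (4805 CPM, next 2991), and it was also the highest CTRL library for Alox5 (14.6 CPM).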

How the results depend on the processing

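Every direction of the 9 members was kept under all alternatives tried, as were the calls of Alox5, Alox5ap, Ptges3 and Tbxas1 and the lack of one for Ltc4s and Lta4h. The log2 fold change of Ptgs2 lost its call with voom (1.58), robust edgeR (2.20), no filter (2.09), replicate 6 of both groups left out (2.20) and CML 2wk replicates 2 and 4 left out (0.04), and DESeq2 gave it no p-value. Leaving out single libraries gave 0.42 to 2.77 for Ptgs2, and without CTRL replicate 1, 3, 4 or 6 its adjusted p was 0.0737 to 0.0778. Hpgds lost its call without a filter (0.31), with the replicate block (0.38), without replicate 6 of both groups (0.40) and without CML 2wk replicates 2 and 4 (0.19), and single libraries left out gave 0.31 to 0.44. Ptger4 lost its call with upper-quartile factors (−0.20) and without CML 2wk replicates 2 and 4 (−0.22). The number of members called higher was 3 in place of 5 at an adjusted p under 0.01, without a filter, without replicate 6 of both groups and without CML 2wk replicates 2 and 4, and 3 to 5 with single libraries left out; the number lower was 1 in place of 2 at 0.01, with upper-quartile factors and without those CML 2wk libraries. The causes were not tested. Of the 5 genes most like Alox5, 3 were kept with Spearman correlation, 3 without CML 2wk replicate 2 and 0 within CML 2wk alone. The replicate numbers do not pair the samples (correlations of deviations between same-numbered libraries −0.125 to 0.0679), and the block changed no other call of a member; it gave 4786 higher and 5189 lower genes in all, against 5637 and 5339. The counts behind Ltc4s, Ptgs2 and Hpgds, and the wider spread in CML 2wk (biological coefficient of variation 32.6%, against 10.9% in CTRL), limit how small a difference could be seen.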

Other observations

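Other weakly counted genes of the pathway also differed between single libraries. Alox8, an epidermal lipoxygenase, had 40 counts in CML 2wk replicate 2, 14 in replicate 4, 1 to 11 in the other CML 2wk libraries and at most 8 in CTRL. Hpgd, which breaks prostaglandins down, had 6 to 36 counts in CTRL and, in CML 2wk, 10 in replicate 2, 7 in replicate 4 and at most 2 elsewhere. Both were too low to be tested.

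Further cell markers differed between the groups as well. Of 10 granulocyte markers, 4 were higher and 4 lower in CML 2wk (edgeR), with sums of 2351 to 4805 CPM in CTRL and 3146 to 8604 CPM in CML 2wk. Of 5 eosinophil markers, 1 was higher and 3 were lower, and their sum went from 52.8 to 88.8 CPM in CTRL to 25.1 to 48.1 CPM. Of 7 erythroid markers, 6 were lower, with sums of 68.8 to 112.9 and 22.7 to 58.8 CPM. Of 6 B cell markers, 2 were lower, with sums of 30.1 to 113.4 and 26.3 to 87.4 CPM. Of the T and NK cell markers, 5 were tested, 2 were higher and 1 was lower, with sums of 74.3 to 98.2 and 87.1 to 192.2 CPM. Of 10 monocyte and macrophage markers, 3 were higher, and of 7 stromal markers tested, 3 were called higher. For each of these 3 stromal markers, only CML 2wk replicates 2 and 4 lay above the CTRL range. The stromal sums were 2755 and 485.7 CPM in those 2 libraries and 66.2 to 86.1 CPM in the other CML 2wk libraries. In CTRL they were 103.3 to 138.2 CPM. A list of 9 genes held Kit, Ly6a and Ptprc, which encode antigens of the sort, with other stem and progenitor genes. In it 7 were lower and 1, Ptprc, was higher, with sums of 2749 to 3125 CPM in CTRL and 1729 to 2227 CPM in CML 2wk. Kit was lower (log2 fold change −0.86), and Ly6a did not pass (0.38, edgeR adjusted p = 0.066).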
